A study of Homo sapiens with 27 samples.

Results

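The genes described here are the human matrix metalloproteinases (MMPs), the ADAMTS proteases and their shared inhibitors, the TIMPs. They were chosen by symbol alone among the protein-coding genes of GENCODE release 29, which gave 46 genes of 19675 with a transcript in the tables: 23 MMP genes, 19 ADAMTS genes and 4 TIMP genes. Poly-A RNA was sequenced from 9 human cell lines, with 3 libraries per line that the series design calls biological replicates, and every gene was compared over all 27 libraries. The labels name no treatment and no engineered change for any line.

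The skin label is carried by SK-Mel 24 and SK-Mel 28, both from melanomas. U2-OS is an osteosarcoma line labelled bone, A549 a lung carcinoma line and U251 a glioma line labelled brain. Caco2 comes from a colon carcinoma and HepG2 from a liver tumour. RT4, labelled kidney, is a bladder carcinoma line, and BJ, labelled epithelial, is a foreskin fibroblast line and the one line here that does not come from a tumour. The media differed: A549 and BJ were in DMEM, RT4 and U2-OS in McCoy medium and the other lines in EMEM, with 15% serum for SK-Mel 24 and 10% for the rest. A line and its medium cannot be told apart.

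MMPs are zinc-dependent proteases that cut the proteins of the extracellular matrix. Most are secreted as inactive proenzymes, whereas the membrane-type MMPs sit on the cell surface and can activate others, as MMP14 does for pro-MMP2 with TIMP2 as a bridge. ADAMTS proteases are secreted relatives with thrombospondin repeats that trim procollagens, cut the large proteoglycans of cartilage or process other matrix and plasma proteins. TIMPs bind the active site of MMPs, and TIMP3 also inhibits several ADAMTS and ADAM proteases. Fibroblasts are a main source of all 3 families in connective tissue, and RNA levels say nothing of how much of a proenzyme is activated.

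Levels are given in TPM, which corrects for transcript length and sums to the same total in each library, added up over a gene's transcripts. It allows comparison between genes. Libraries held from 15597117 to 32583547 estimated counts, with a median of 26090811. Fold changes and tests come from the counts instead, in 1 edgeR quasi-likelihood fit, with p-values adjusted by the Benjamini-Hochberg method over the 17220 genes tested.

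Marker genes matched most labels but not all. Hepatocyte markers reached 1 TPM for 5 of 5 genes in HepG2 and intestinal markers for 4 of 5 in Caco2, but lung epithelium markers for 0 of 5 in A549, where NKX2-1, SFTPA1 and SCGB1A1 lay under 0.1 TPM. RT4 had 1 of 5 kidney tubule markers and 5 of 5 urothelium markers, and BJ had 5 of 5 fibroblast markers. The summed level of 6 melanocyte markers ran from 235 to 298 TPM in SK-Mel 24 and from 9972 to 15050 TPM in SK-Mel 28. Of the 5 osteoblast markers 2 reached 1 TPM in U2-OS, with SP7 and IBSP under 0.1 TPM.

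Among the libraries, 3 stood apart from the others of their line for these genes. Of the 24 members at 1 TPM or more in U2-OS, library 3 was at least 2-fold above the mean of the other libraries for 7 and at least 2-fold below it for 5. BJ library 1 was 2-fold above for 3 of 24 and 2-fold below for 6. HepG2 library 1 was 2-fold below for 5 of 5, and mitochondrial genes took 71.1% of its counts, against 33.8% and 32.6% in the other HepG2 libraries. HepG2 values below are therefore also given as TPM recomputed without mitochondrial genes where they matter.

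Most of the 46 genes were detected somewhere and few everywhere. In bulk libraries more cells with a transcript and more RNA per cell cannot be told apart. A line mean of at least 1 TPM was reached in some line by 36 members, or 18 MMP, 14 ADAMTS and 4 TIMP genes, while 77.7% of all protein-coding genes reached it. TIMP1, TIMP2 and MMP15 alone reached it in every line, as did 41.1% of all protein-coding genes. BJ, SK-Mel 24 and U2-OS each held 24 members at 1 TPM, followed by U251 with 18, A549 and SK-Mel 28 with 14 each, RT4 with 13 and Caco2 with 12. HepG2 held 5, and 9 when mitochondrial genes were left out of the TPM. The ADAMTS genes set the lines further apart: 10 were at 1 TPM in BJ, 9 each in SK-Mel 24 and U2-OS, 1 each in RT4 and Caco2, and 0 in HepG2. Without mitochondrial genes HepG2 held 1, ADAMTS13.

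**Figure D1:**
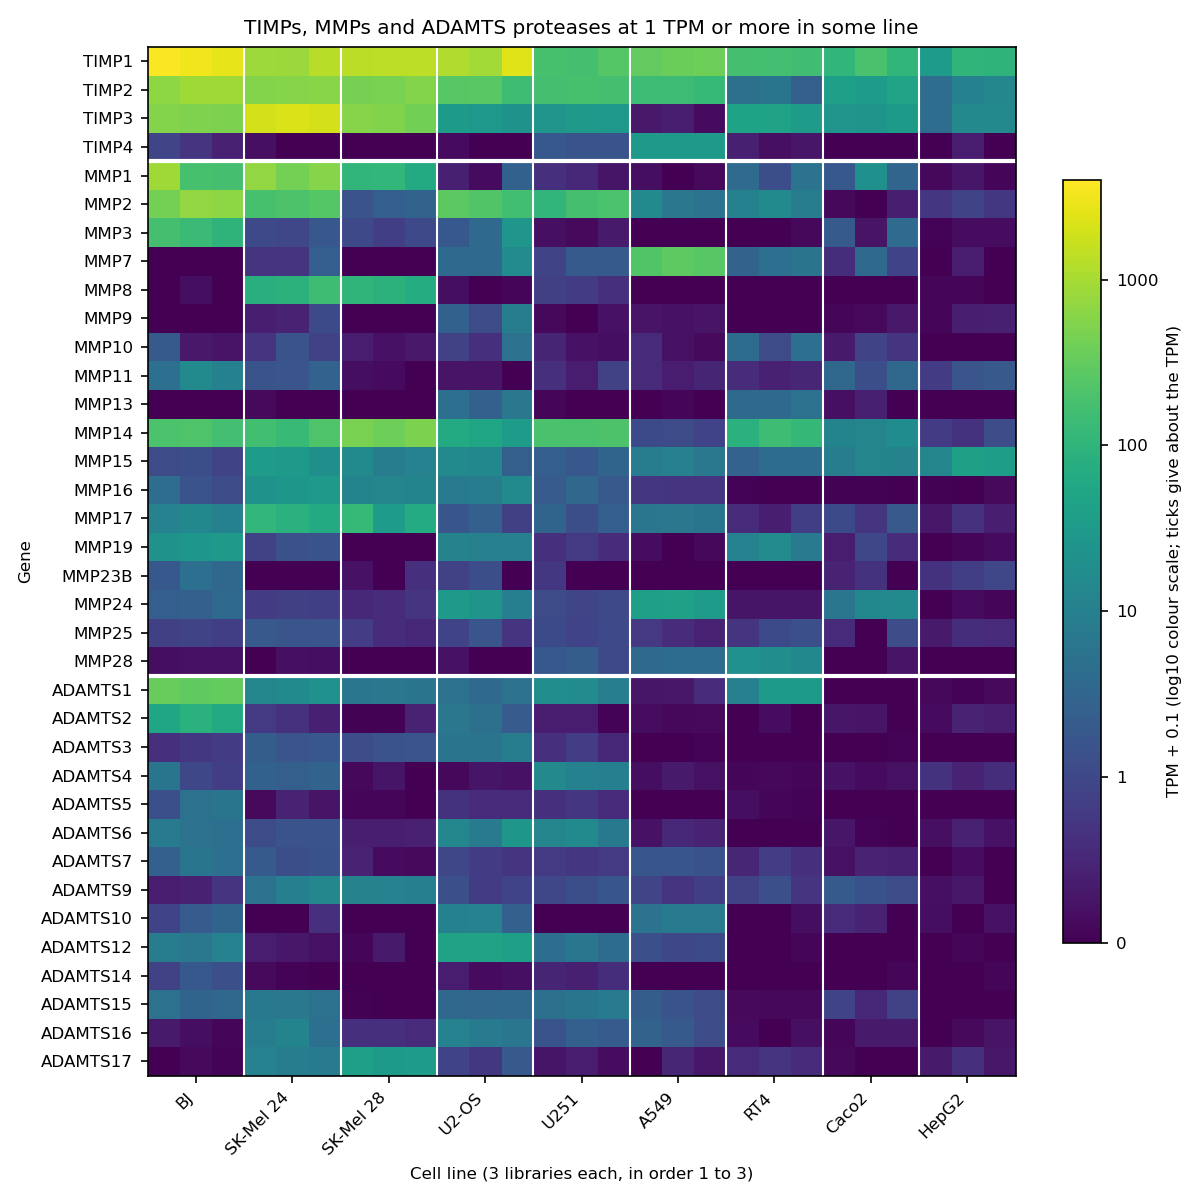
Heat map of the 36 genes that reached 1 TPM in at least 1 line (rows) in the 27 libraries (columns, 3 per line). Colour is the log10 of TPM + 0.1. BJ, SK-Mel 24 and U2-OS each hold 24 of these genes at a mean of 1 TPM or more, and HepG2 holds 5.

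TIMP1, on chromosome X at 47582313-47586789 on the plus strand (GRCh38, as all positions here unless stated), encodes a secreted inhibitor of most soluble MMPs. It was the most abundant member in BJ, with 3713, 3199 and 2686 TPM, or 3199 ± 513 (SD, n = 3). In U2-OS the libraries held 1109, 925 and 2427 TPM, in SK-Mel 28 1321, 1384 and 1365 TPM, and in SK-Mel 24 842, 820 and 1306 TPM. A549 held 314, 373 and 387 TPM. The lowest BJ library lay above the highest of every other line. U251, RT4, Caco2 and HepG2 held 183, 178 and 244 TPM, then 176, 172 and 156, then 106, 194 and 107, and last 34.2, 102 and 97.0 TPM. HepG2 stood at 169 TPM once mitochondrial genes were left out. By edgeR's quasi-likelihood test BJ exceeded U2-OS (adjusted p = 0.00022), while U2-OS, SK-Mel 28 and SK-Mel 24 did not pass the test as neighbours in that order.

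HepG2 differed in which TIMP1 transcript carried the signal. ENST00000218388 is the full-length transcript with a coding sequence of 621 bases, and ENST00000377017 runs from exon 1 straight to exon 3. The skipped exon 2 is 129 bases long and holds 8 bases ahead of the start codon and 121 coding bases, or 19.5% of the coding sequence. The junctions show what differs between these transcripts, with the last 15 bases of exon 1 in lower case and the first 15 of the next exon in capitals.
Full-length TIMP1 transcript: agagagacaccagagAACCCACCATGGCCC
TIMP1 transcript without exon 2: agagagacaccagagTCATCAGGGCCAAGT
The skipped exon lies at chrX:47583408-47583536 on the plus strand of GRCh38 and is shown whole, with the start codon in capitals.
TIMP1 exon 2: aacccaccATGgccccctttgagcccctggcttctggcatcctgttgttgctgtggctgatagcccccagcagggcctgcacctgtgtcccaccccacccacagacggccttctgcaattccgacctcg
ENST00000377017 is annotated with a coding sequence of 429 bases that starts further downstream.

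The transcript without exon 2 took 75.8%, 75.9% and 71.7% of TIMP1 TPM in the HepG2 libraries, or 74.5% ± 2.37 (SD, n = 3), on 497, 861 and 794 estimated counts. In the other 8 lines its mean share ran from 2.25% to 11.5%, and the highest single library was Caco2 library 1 at 22.6%. The lowest HepG2 library was thus above every library of the other lines. It stood at 25.9, 77.7 and 69.6 TPM in HepG2 and the full-length transcript at 8.28, 24.1 and 26.9 TPM. Such shares are kallisto's estimates, since reads from shared exons fit both transcripts, and were not tested.

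TIMP2, on chromosome 17 at 78852977-78925387 on the minus strand, inhibits MMPs and also bridges pro-MMP2 to MMP14. Its level was 650, 887 and 887 TPM in BJ, 555, 577 and 602 TPM in SK-Mel 24 and 447, 470 and 561 TPM in SK-Mel 28. U2-OS held 260, 270 and 148 TPM, U251 176, 185 and 179 TPM and A549 145, 144 and 119 TPM. Caco2 followed with 39.5, 33.0 and 48.2 TPM, HepG2 with 4.40, 10.6 and 13.2 TPM and RT4 with 4.98, 5.93 and 2.40 TPM. The order fell into steps. BJ exceeded SK-Mel 24 (adjusted p = 0.0067, edgeR), SK-Mel 24 and SK-Mel 28 did not pass against each other, and SK-Mel 28 exceeded U2-OS (adjusted p = 2.2e-05). HepG2 stood at 20.6 TPM without mitochondrial genes.

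SK-Mel 28 differed from the other lines in its TIMP2 transcripts. The transcript ENST00000586057, whose first exon of 271 bases covers the intron between exons 1 and 2 of ENST00000585421, took 32.5%, 30.7% and 39.6% of TIMP2 TPM there. Its mean was 1.81% in SK-Mel 24 and the highest library outside SK-Mel 28 was RT4 library 2 at 7.80%, a library with little TIMP2. ENST00000585421 took 37.3% in SK-Mel 28 and from 69.9% to 84.2% elsewhere. Both carry a coding sequence of 429 bases, against 660 in ENST00000262768.

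**Figure D2:**
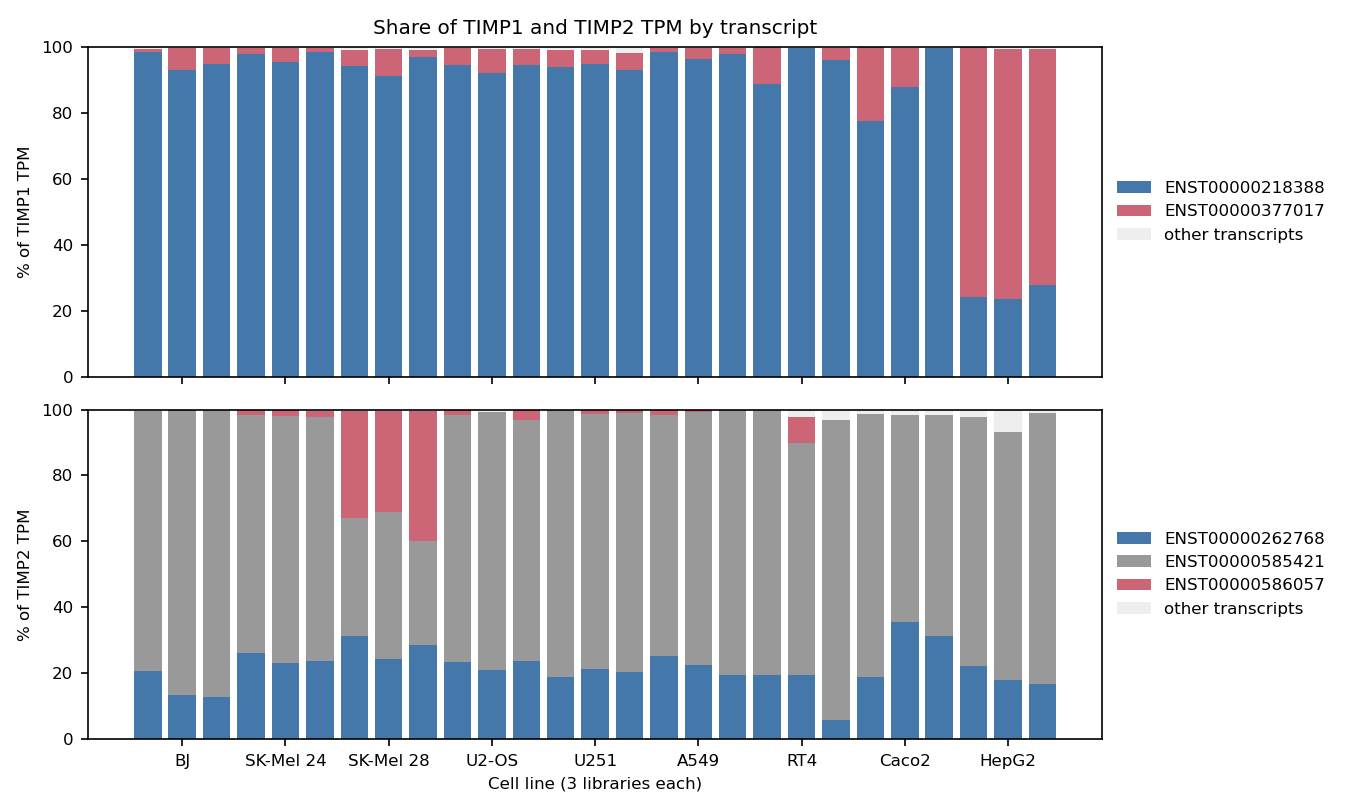
Share of each gene's TPM by transcript, as stacked bars in percent, for TIMP1 (upper panel; blue the full-length transcript, red the one without exon 2) and TIMP2 (lower panel; blue ENST00000262768, grey ENST00000585421, red ENST00000586057) in each of the 27 libraries, with other transcripts in pale grey. Red fills at least 71.7% of the TIMP1 bar in the HepG2 libraries and of the TIMP2 bar at least 30.7% in the SK-Mel 28 libraries.

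TIMP3, on chromosome 22 at 32801701-32863043 on the plus strand, encodes the TIMP that binds to the matrix and has the broadest range of targets. It was highest in SK-Mel 24, with 2025, 2229 and 1995 TPM, where it exceeded TIMP1. BJ held 555, 523 and 486 TPM and SK-Mel 28 595, 539 and 419 TPM. The SK-Mel 24 libraries were apart from both, and BJ and SK-Mel 28 overlapped. RT4 held 47.3, 45.4 and 33.5 TPM, U2-OS 32.5, 28.8 and 22.2 TPM, U251 24.7, 30.6 and 28.8 TPM and Caco2 24.7, 24.4 and 32.4 TPM. HepG2 held 4.35, 14.5 and 14.5 TPM, or 23.6 TPM on average without mitochondrial genes, and by fitted count level it exceeded Caco2 (adjusted p = 0.037, edgeR). A549 held 0.108, 0.144 and 0.0348 TPM. A549, which had TIMP1 and TIMP2 above 100 TPM, thus held almost no TIMP3 RNA. SK-Mel 24 exceeded BJ with an adjusted p of 7.6e-07 by edgeR's quasi-likelihood test.

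TIMP4, on chromosome 3 at 12153051-12159351 on the minus strand, is the TIMP with the most restricted tissue pattern. A549 held 30.5, 30.2 and 29.4 TPM, U251 1.72, 1.45 and 1.49 TPM and BJ 0.808, 0.396 and 0.166 TPM. No library of the other 6 lines passed 0.149 TPM, and Caco2 and SK-Mel 28 were at 0 in all libraries. TIMP4 was enriched in A549, a call that asks for a level above each of the other lines by 8 one-sided edgeR tests and at least 4-fold above the next: it was 19.6-fold above U251 (adjusted p = 2.31e-06).

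TIMP1, TIMP3 and TIMP4 lie inside introns of the synapsin genes SYN1, SYN3 and SYN2 on the opposite strand. The libraries were made with a stranded kit, but whether the counting used the strand is not given in the sources used here. SYN1 stayed at or under 0.824 TPM in every line. SYN3 reached 8.01 TPM in SK-Mel 24 and 3.33 TPM in SK-Mel 28 and stayed at or under 0.818 TPM elsewhere. SYN2 reached 3.09 TPM in A549 and 2.04 TPM in U2-OS. Each host gene was far below its TIMP in the lines where the TIMP was high.

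**Figure D3:**
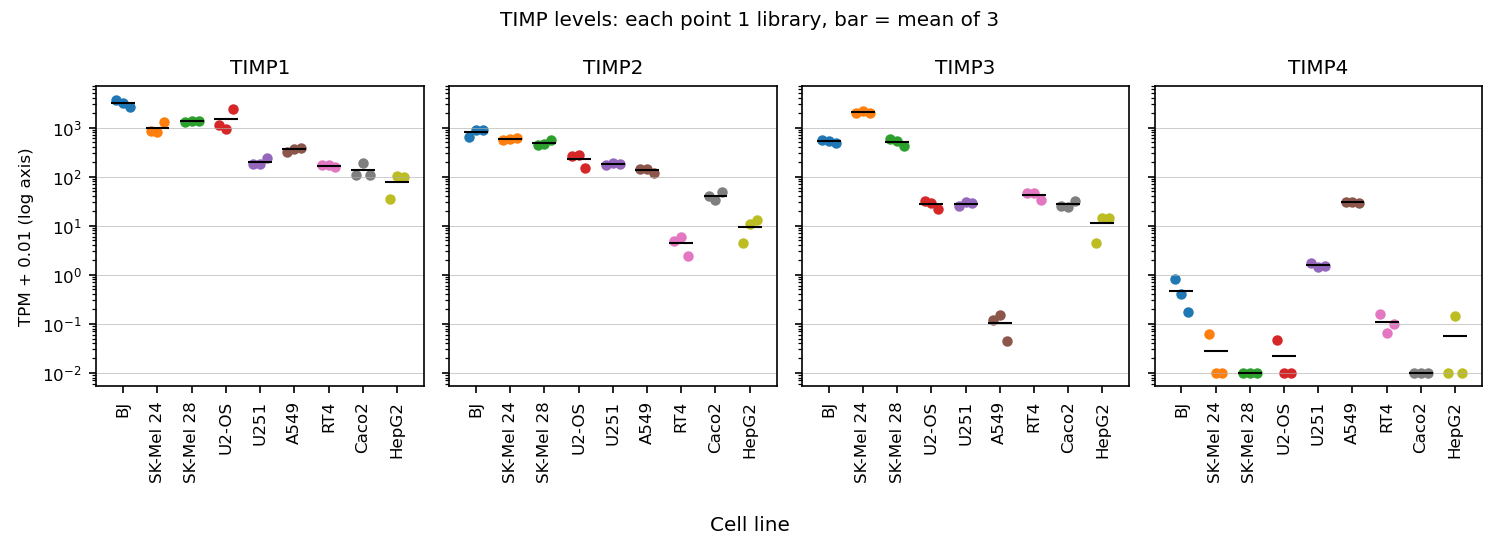
TPM of TIMP1, TIMP2, TIMP3 and TIMP4 in the 9 lines, with 1 panel per gene, each point a library, the bar the mean of the 3 libraries and a log axis of TPM + 0.01. TIMP1 leads in BJ at 3199 TPM, TIMP3 in SK-Mel 24 at 2083 TPM and TIMP4 in A549 at 30.1 TPM, the line where TIMP3 is at 0.0957 TPM.

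Among the collagenases, which cut fibrillar collagen, MMP1 was high in the skin-derived lines. SK-Mel 24 held 703, 441 and 573 TPM, BJ 896, 182 and 178 TPM and SK-Mel 28 105, 112 and 66.2 TPM. BJ library 1 was 4.98-fold above the mean of the other BJ libraries, and BJ overlapped SK-Mel 24 while both lay above SK-Mel 28. The pair of SK-Mel 24 and BJ did not pass the edgeR test (adjusted p = 0.92), and BJ exceeded SK-Mel 28 (adjusted p = 0.015). Caco2 held 1.78, 20.7 and 3.01 TPM and RT4 3.98, 1.19 and 5.62 TPM, and the other 4 lines stayed at or under 2.56 TPM in each library.

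MMP8, the collagenase known from neutrophils, was a gene of the melanoma lines here. SK-Mel 24 held 76.0, 90 and 152 TPM and SK-Mel 28 103, 91.1 and 70.1 TPM, which overlapped and did not pass the test (adjusted p = 0.69, edgeR). U251 followed with 0.647, 0.560 and 0.324 TPM, and every library of the other 6 lines was at or under 0.0484 TPM. Since 2 lines shared the high level, MMP8 could not count as enriched in 1 line. MMP13, a collagenase of cartilage and bone, held 4.78, 2.46 and 6.48 TPM in U2-OS and 3.79, 3.58 and 5.03 TPM in RT4 and at most 0.15 TPM elsewhere.

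The gelatinases, which cut denatured collagen and basement membrane collagen, are MMP2 and MMP9. MMP2 held 440, 714 and 659 TPM in BJ, 276, 224.95 and 161 TPM in U2-OS, 185, 205 and 241.3 TPM in SK-Mel 24 and 108, 174 and 199 TPM in U251. SK-Mel 28 held 1.39, 2.28 and 2.83 TPM, below every library of SK-Mel 24, RT4 and A549. RT4 held 10.5, 15.0 and 8.79 TPM, A549 15.2, 6.44 and 5.49 TPM, HepG2 at most 0.788 TPM and Caco2 at most 0.139 TPM. BJ exceeded U2-OS (adjusted p = 1.3e-05), whereas U2-OS, SK-Mel 24 and U251 did not pass against their neighbours in the order of means by edgeR. MMP9 stayed low in all lines. U2-OS held 2.59, 1.02 and 8.60 TPM, SK-Mel 24 0.139, 0.174 and 0.986 TPM, and the remaining lines at most 0.158 TPM.

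The stromelysins cut proteoglycans and other matrix proteins and can activate procollagenases. MMP3 held 177, 138 and 99.9 TPM in BJ and 1.72, 3.71 and 25.0 TPM in U2-OS, where library 3 was 9.20-fold above the mean of the other libraries. SK-Mel 24 held 0.945, 0.852 and 1.66 TPM, SK-Mel 28 0.946, 0.614 and 0.945 TPM and Caco2 1.91, 0.0776 and 4.04 TPM, and no other library passed 0.118 TPM. BJ was apart from every other line, and its level was 18.8-fold above U2-OS (adjusted p = 3.63e-05, edgeR), an enriched call. The margin of 4.23 on the log2 scale became 6.27 without U2-OS library 3. MMP10 reached 3.29 TPM in RT4 and stayed lower elsewhere, with U2-OS library 3 at 5.07 TPM against 0.671 and 0.342 TPM in the other U2-OS libraries. MMP11 reached 10.2 TPM in BJ, with 4.66, 15.5 and 10.5 TPM.

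The matrilysins lack the hemopexin domain of other MMPs, and MMP7 is known from epithelia. MMP7 held 221, 288.98 and 260 TPM in A549, which made up 74.3% to 82.0% of all MMP TPM in that line. U2-OS held 3.69, 3.78 and 16.6 TPM, RT4 2.83, 4.64 and 5.76 TPM, Caco2 0.301, 3.71 and 0.726 TPM, U251 0.796, 1.90 and 1.89 TPM and SK-Mel 24 0.414, 0.412 and 2.24 TPM. HepG2 held at most 0.131 TPM, and BJ and SK-Mel 28 were at 0 in all libraries. Every A549 library was far above every library of the other lines. MMP7 was enriched in A549, at 37.0-fold above U2-OS (adjusted p = 4.82e-05, edgeR). MMP26, the other matrilysin, was at 0 in all 27 libraries.

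MMP7 and 8 other MMP genes stand in a row on chromosome 11, from 102520508 to 102955734, a stretch of 435 kb. In that order they are MMP7, MMP20, MMP27, MMP8, MMP10, MMP1, MMP3, MMP12 and MMP13. The highest mean was in A549 for MMP7, in SK-Mel 24 for MMP8 and MMP1, in RT4 for MMP10 and MMP12, in BJ for MMP3, in U2-OS for MMP13 and in Caco2 for MMP20, which reached 0.770 TPM. The leading line passed against the second for MMP7 and MMP3. It did not for MMP8, MMP1 (SK-Mel 24 and BJ), MMP10, MMP12 and MMP13 (U2-OS and RT4, adjusted p = 0.349, edgeR). MMP27 was at 0 in all 27 libraries. MMP1, MMP10 and MMP3 overlap the antisense pseudogene WTAPP1, which stayed at or under 3.57 TPM.

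**Figure D4:**
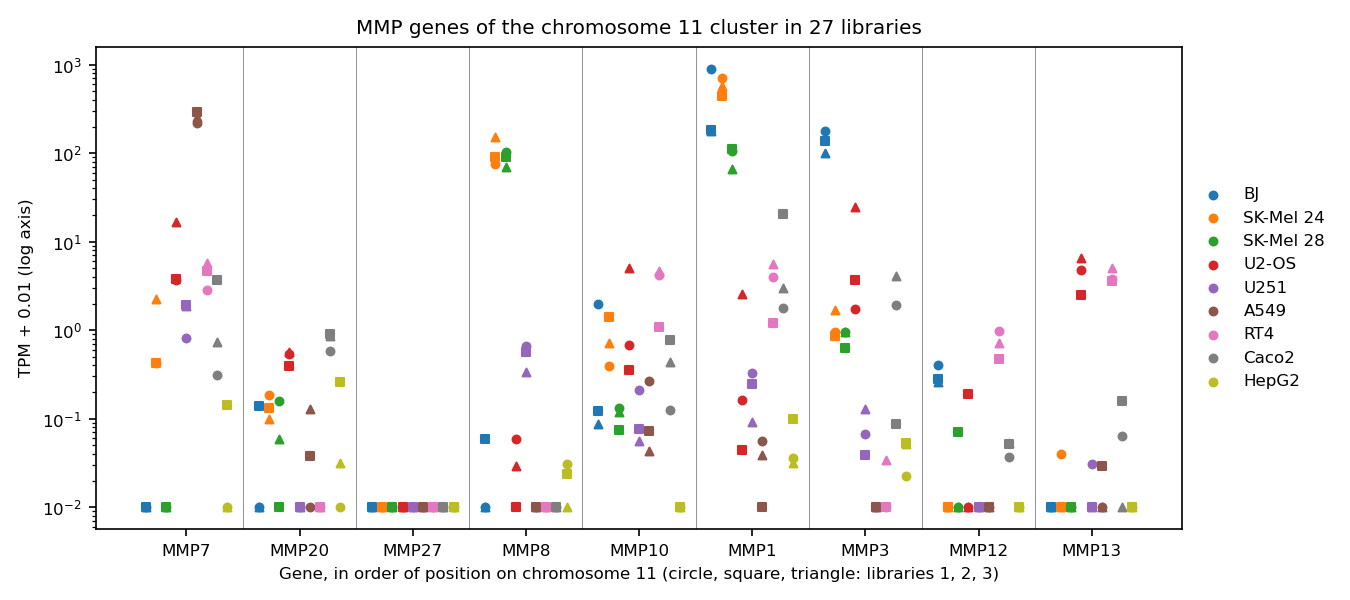
TPM of the 9 MMP genes of the chromosome 11 cluster, in chromosome order, on a log axis of TPM + 0.01. Colours are the 9 lines, and circle, square and triangle are libraries 1, 2 and 3. MMP7 peaks in A549 at 256.5 TPM, MMP8 and MMP1 in SK-Mel 24 at 106 and 572 TPM and MMP3 in BJ at 138 TPM.

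Promoter sequences of the cluster were read from RefSeq (GRCh38.p14), where 27 of the 46 members matched a window from 250 bases before to 50 after the start. MMP7 and MMP10 are shown because these genes of the cluster match the same pair of patterns, TGANTCA and TATAAA, at nearly the same places while their levels differed. Capitals mark a match to TGANTCA, where N is any base, and a TATA box. The match is the AP-1 motif TGAGTCA in MMP7 but TGAATCA in MMP10. Both sequences are on the minus strand of chromosome 11.
MMP7 promoter, chr11:102530748-102530867: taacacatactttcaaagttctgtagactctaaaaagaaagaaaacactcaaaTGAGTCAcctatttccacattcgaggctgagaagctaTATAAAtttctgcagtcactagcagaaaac
MMP10 promoter, chr11:102780629-102780748: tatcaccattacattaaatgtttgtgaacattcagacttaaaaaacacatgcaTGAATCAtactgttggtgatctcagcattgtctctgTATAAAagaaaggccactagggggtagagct
The motif TGANTCA, searched on both strands and including every TGAGTCA, began at -67 from the start in both genes. The motif TATAAA, searched on the gene's strand, began at -30 in MMP7 and at -31 in MMP10. TGANTCA was in 4 of the 27 member windows (ADAMTS12, MMP7, MMP10 and MMP20) and in 7.71% of 35116 windows of all genes. TGAGTCA itself was, of these 27 windows, in that of MMP7 alone, and in 4.95% of all windows. MMP1, MMP3, MMP12 and MMP13 of the cluster had no window and were not searched. TATAAA was in 6 member windows (MMP7, MMP8, MMP10, MMP20, MMP21 and MMP26) and in 7.33% of all. Such matches describe letters and do not show binding.

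Of the membrane-type MMPs, MMP14 was the most abundant. It held 483, 389 and 491 TPM in SK-Mel 28, 193, 193 and 208.98 TPM in U251, 197, 216.8 and 172 TPM in BJ and 160, 130 and 218.3 TPM in SK-Mel 24. RT4 held 87.7, 147 and 115 TPM, U2-OS 64.9, 53.6 and 34.3 TPM and Caco2 12.0, 12.1 and 17.4 TPM. A549 held 0.997, 1.06 and 0.753 TPM and HepG2 0.523, 0.370 and 1.11 TPM, or 1.68 TPM on average without mitochondrial genes. The lowest SK-Mel 28 library exceeded every library of the other lines, and SK-Mel 28 exceeded U251 (adjusted p = 6.9e-05, edgeR). MMP14 and MMP2, the activator and its substrate, were both above 100 TPM in BJ, SK-Mel 24 and U251, whereas SK-Mel 28 had the highest MMP14 beside MMP2 at 2.17 ± 0.725 TPM (SD, n = 3). The transcript ENST00000548162, which has another last exon and no annotated coding sequence, took 24.2% of MMP14 TPM in SK-Mel 24, 19.8% in SK-Mel 28, 20.3% in U251 and 16.1% in U2-OS. It took 2.95% in BJ, 0.667% in RT4 and 0% in Caco2.

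MMP15 was present in all lines. HepG2 held 12.3, 40.6 and 38.5 TPM, or 65.1 TPM on average without mitochondrial genes, and MMP15 made up 85.1% to 89.5% of MMP TPM there. SK-Mel 24 held 33.4, 29.1 and 19.2 TPM, SK-Mel 28 15.6, 8.58 and 10.8 TPM, Caco2 8.75, 12.4 and 11.4 TPM and U2-OS 15.4, 14.2 and 2.35 TPM. A549 held 8.85, 10.1 and 6.85 TPM, RT4 2.73, 4.18 and 4.09 TPM, U251 2.27, 1.68 and 2.92 TPM and BJ 1.05, 1.18 and 0.794 TPM. In TPM HepG2 and SK-Mel 24 overlapped. By fitted count level HepG2 was 4.51-fold above SK-Mel 24 (adjusted p = 0.000397, edgeR), an enriched call that was lost without SK-Mel 24 library 3, where the margin fell just short of 4-fold at 1.99 on the log2 scale.

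The other membrane-type genes followed other lines. MMP16 held 22.3, 27.6 and 29.3 TPM in SK-Mel 24, 11.6, 12.5 and 11.7 TPM in SK-Mel 28 and 7.49, 8.72 and 14.9 TPM in U2-OS, then 4.29, 1.39 and 1.00 TPM in BJ and 2.03, 3.17 and 1.87 TPM in U251. A549 held at most 0.428 TPM and RT4, Caco2 and HepG2 at most 0.0286 TPM. SK-Mel 24 was above all other lines in every library, and SK-Mel 28 and U2-OS overlapped. MMP17, which is anchored to the membrane by a lipid, held 113, 86.4 and 65.0 TPM in SK-Mel 24 and 121, 34.7 and 68.6 TPM in SK-Mel 28. BJ held 10.9, 13.7 and 10.3 TPM and A549 6.21, 6.55 and 5.97 TPM, and no library of the other lines passed 2.88 TPM. The melanoma lines overlapped for MMP17, and both were above BJ.

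MMP24 held 39.6, 43.7 and 32.8 TPM in A549, 30.6, 23.6 and 9.61 TPM in U2-OS, 6.24, 14.0 and 15.0 TPM in Caco2 and 2.30, 2.49 and 3.67 TPM in BJ, with at most 1.10 TPM in any other library. A549 was above every library of U2-OS (adjusted p = 0.0059, edgeR), and U2-OS overlapped Caco2. MMP24 lies within MMP24OS on the opposite strand, which reached 89.3 TPM in BJ, so a value of MMP24 depends on the strand setting of the counting. MMP25, also lipid-anchored, reached 1.64 TPM in SK-Mel 24.

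MMP19 and MMP28 belong to no large subgroup. MMP19 held 23.0, 26.5 and 30.4 TPM in BJ, 10.7, 16.5 and 7.46 TPM in RT4, 11.6, 9.81 and 9.98 TPM in U2-OS and 0.697, 1.27 and 1.49 TPM in SK-Mel 24. SK-Mel 28 was at 0 in all 3 libraries, and the other lines stayed at or under 0.864 TPM. BJ was above all other lines. MMP28, an MMP known from skin and other epithelia, held 21.1, 17.7 and 14.1 TPM in RT4, 3.78, 4.14 and 4.14 TPM in A549 and 1.77, 2.21 and 0.937 TPM in U251, and at most 0.0782 TPM elsewhere. It was enriched in RT4, at 5.68-fold above A549 (adjusted p = 0.00228, edgeR), a call lost when only coding transcripts were counted. MMP28 overlaps TAF15 on the opposite strand, which reached 158 TPM. MMP23B reached 3.31 TPM in BJ, where coding transcripts held 0%, 0% and 6.01% of it. MMP12, MMP20 and MMP21 stayed under 1 TPM in every line, with highest means of 0.716, 0.770 and 0.0297 TPM.

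Of the ADAMTS genes, the proteoglycanases cut aggrecan and versican, and ADAMTS1 was the most abundant. BJ held 338, 298 and 332 TPM of ADAMTS1. RT4 held 10.1, 32.2 and 31.6 TPM, SK-Mel 24 12.8, 15.8 and 21.0 TPM, U251 18.1, 16.3 and 9.14 TPM, SK-Mel 28 6.26, 6.68 and 5.71 TPM and U2-OS 5.01, 3.62 and 5.32 TPM. A549 and HepG2 held at most 0.286 TPM and Caco2 was at 0. BJ was apart from all lines, at 14.4-fold above RT4 (adjusted p = 1.21e-08, edgeR), and RT4, SK-Mel 24 and U251 overlapped. ADAMTS1 made up 71.2% to 80.1% of ADAMTS TPM in BJ.

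ADAMTS4, an aggrecanase, held 14.8, 10.5 and 9.47 TPM in U251, 2.55, 2.42 and 2.80 TPM in SK-Mel 24 and 6.14, 0.899 and 0.615 TPM in BJ, where library 1 was 8.11-fold above the mean of the other libraries. HepG2 held 0.371, 0.190 and 0.301 TPM and the other lines at most 0.112 TPM. U251 was above every other library. Its enriched call, 4.48-fold above HepG2, the next line by fitted count level (adjusted p = 0.00643, edgeR), was lost without BJ library 3, HepG2 library 2 or HepG2 library 3 and with coding transcripts alone. The value of ADAMTS4 also depends on the strand setting of the counting. ADAMTS5, the other main aggrecanase, held 1.21, 5.08 and 6.14 TPM in BJ and was enriched there, at 15.4-fold above U251 (adjusted p = 0.000124, edgeR). ADAMTS9 was a gene of the melanoma lines, with 5.36, 9.77 and 13.6 TPM in SK-Mel 24 and 11.5, 10.9 and 9.66 TPM in SK-Mel 28. ADAMTS15 split them: SK-Mel 24 held 7.28, 6.73 and 5.09 TPM and SK-Mel 28 at most 0.0085 TPM. ADAMTS8 and ADAMTS20 stayed under 1 TPM, with highest means of 0.656 and 0.206 TPM in U2-OS.

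The procollagen proteases remove the amino-terminal propeptide of fibrillar procollagens. ADAMTS2 held 50.2, 87.9 and 65.8 TPM in BJ, 6.66, 4.96 and 1.99 TPM in U2-OS and 0.512, 0.353 and 0.152 TPM in SK-Mel 24, with at most 0.193 TPM in any other library. BJ was 31.8-fold above U2-OS (adjusted p = 2.31e-09, edgeR), and no library of another line came near it. ADAMTS14 also led in BJ, at 0.661, 1.77 and 1.23 TPM, and was enriched there at 6.86-fold above U251 (adjusted p = 0.0049, edgeR). ADAMTS3 instead led in U2-OS, at 5.89, 5.80 and 8.58 TPM, ahead of SK-Mel 24 with 2.13, 1.53 and 1.67 TPM.

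ADAMTS12 and ADAMTS7 cut the cartilage oligomeric matrix protein. ADAMTS12 held 44.0, 44.99 and 40.0 TPM in U2-OS, 8.71, 6.96 and 10.8 TPM in BJ, 4.45, 6.34 and 4.22 TPM in U251 and 1.24, 0.874 and 0.991 TPM in A549, with at most 0.134 TPM elsewhere. The first 4 lines did not overlap, and the U2-OS level was 5.00-fold above BJ (adjusted p = 3.49e-06, edgeR), an enriched call. ADAMTS7 reached 4.40 TPM in BJ, with 2.52, 6.04 and 4.65 TPM, and overlaps MORF4L1 on the opposite strand, which reached 686 TPM.

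Among the ADAMTS genes with less defined substrates, ADAMTS17, which is mutated in a Weill-Marchesani-like syndrome, was highest in the melanoma lines. SK-Mel 28 held 40.3, 31.9 and 34.4 TPM, SK-Mel 24 11.0, 8.95 and 8.13 TPM and U2-OS 0.735, 0.458 and 1.85 TPM, with at most 0.392 TPM elsewhere. The melanoma lines did not overlap in TPM. The difference lay largely in ENST00000560486, a transcript of 847 bases with no annotated coding sequence, at 20.6 TPM in SK-Mel 28 and 2.19 TPM in SK-Mel 24. The coding transcript ENST00000268070 stood at 2.58 and 2.33 TPM in these lines. ADAMTS6 reached 16.3 TPM in U2-OS, ADAMTS10 7.88 TPM in U2-OS and ADAMTS16 8.50 TPM in SK-Mel 24. In the U2-OS libraries coding transcripts held 21.6%, 34.6% and 20.4% of ADAMTS6 TPM and 28.4%, 15.8% and 25.9% of ADAMTS10 TPM. For ADAMTS16 in SK-Mel 24 they held 55.5%, 63.7% and 51.1%. ADAMTS13, the plasma protease of von Willebrand factor known from liver, had its highest mean in HepG2 at 0.579 TPM, or 1.28 TPM without mitochondrial genes. ADAMTS18 and ADAMTS19 had highest means of 0.217 TPM in U2-OS and 0.164 TPM in BJ.

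Of the 46 members 41 had enough counts to be tested; ADAMTS19, MMP20, MMP21, MMP26 and MMP27 had not. All 41 differed among the 9 lines by the F test of the edgeR fit, against 98.3% of all genes tested, so this count does not set them apart. Enrichment in 1 line was called for 13 of the 41, while 14% of all genes were. BJ held 6 of them (ADAMTS1, ADAMTS2, ADAMTS5, ADAMTS7, ADAMTS14 and MMP3; 1.77% of all genes). A549 held MMP7 and TIMP4 (0.865%), U2-OS held ADAMTS12 and MMP9 (1.91%), HepG2 held MMP15 (3.68%), RT4 held MMP28 (2.06%) and U251 held ADAMTS4 (0.325%). SK-Mel 24 (0.952%), SK-Mel 28 (1.24%) and Caco2 (1.2%) held 0. Among the less secure calls, MMP9 in U2-OS (8.40-fold above SK-Mel 24, adjusted p = 0.0256) was lost without U2-OS library 3, and without any of HepG2 libraries 1 to 3 or SK-Mel 24 libraries 1 and 2. ADAMTS7 in BJ (4.26-fold above A549, adjusted p = 0.00845) was lost without BJ library 2.

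SK-Mel 28 and SK-Mel 24 are the only lines that share a tissue label, and their comparison asks how far melanoma lines differ in these genes. Most members that differed were lower in SK-Mel 28. By edgeR's quasi-likelihood test, with an adjusted p under 0.05 and at least a 2-fold change, 20 members were lower in SK-Mel 28 (16.5% of all genes) and 2 higher (15.5%), and 19 did not pass. The median log2 fold change was -1.89 over the 41 members and 0 over all genes. By family the counts were 9 lower and 1 higher of 19 MMP genes, 10 lower and 1 higher of 18 ADAMTS genes and 1 lower of 4 TIMP genes.

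The MMP14 log2 fold change of SK-Mel 28 over SK-Mel 24 was 1.51 ± 0.228 (SE, adjusted p = 5.87e-06), and the values above do not overlap. ADAMTS17 stood at 1.09 ± 0.415 (adjusted p = 0.0337), but lost its call without any single library of either line, with adjusted p from 0.051 to 0.134, and with coding transcripts alone, at 0.21 on the log2 scale. Both gelatinases were lower. MMP2 fell by 7.01 ± 0.439 on the log2 scale (adjusted p = 2.86e-12). MMP9 had 38 estimated counts over the SK-Mel 24 libraries and 0 in SK-Mel 28, which makes it at least 14.6-fold lower against a floor of 3 counts over 3 libraries. It was low in SK-Mel 24 too, at 0.139, 0.174 and 0.986 TPM, so most of these counts came from library 3. The MMP9 call was kept without that library (adjusted p = 0.0132, edgeR).

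Of the 7 proteoglycanases 6 were lower in SK-Mel 28. For ADAMTS15 the SK-Mel 24 libraries summed to 1603 counts and those of SK-Mel 28 to 1, a 1850-fold ratio scaled to depth with an exact 95% counting interval from 332 to 73200, which covers counting error only. ADAMTS4 fell by 5.04 ± 0.651 on the log2 scale, and by 6.24 without SK-Mel 28 library 2, and ADAMTS1 by 1.46 ± 0.299. ADAMTS5, ADAMTS8 and ADAMTS20 were lower too, the latter pair on 1 and 3 counts in SK-Mel 28. ADAMTS20 did not pass by DESeq2 (adjusted p = 0.102). ADAMTS9 did not pass, at 0.36 ± 0.357. ADAMTS16 stood at 9.00, 11.8 and 4.65 TPM in SK-Mel 24 and 0.332, 0.343 and 0.250 TPM in SK-Mel 28, a fall of 4.95 ± 0.501. ADAMTS6, ADAMTS7 and ADAMTS2 fell by 3.92 ± 0.564, 4.20 ± 0.644 and 2.74 ± 0.775. Without SK-Mel 28 library 1 ADAMTS7 fell by 4.89, and without library 3 ADAMTS2 fell by 3.86. The ADAMTS5 call was lost without SK-Mel 24 library 2 or SK-Mel 28 library 1 or 3.

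Among the other MMPs, MMP25 fell by 2.80 ± 0.634 on the log2 scale, and by 3.53 without SK-Mel 28 library 1, MMP16 by 1.21 ± 0.346 and MMP15 by 1.13 ± 0.384. MMP11 was also lower, with 3 counts over the SK-Mel 28 libraries after rounding and a 58.2-fold ratio (exact 95% counting interval 19.5 to 285). MMP1 fell by 2.53 ± 0.819 (adjusted p = 0.0131), a call lost without SK-Mel 28 library 3 (adjusted p = 0.0576). MMP15 lost its call without SK-Mel 24 library 1 or SK-Mel 28 library 2 or 3. With SK-Mel 28 at 0 counts, MMP19 was at least 40.8-fold lower (106 counts over the SK-Mel 24 libraries) and MMP7 at least 14.6-fold lower (38 counts), and MMP7 lost its call without SK-Mel 24 library 3 (adjusted p = 0.0998).

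TIMP3 fell by 1.94 ± 0.222 (adjusted p = 8.91e-08), while TIMP1 stood at 0.49 ± 0.329 (adjusted p = 0.234) and TIMP2 at -0.16 ± 0.237 (adjusted p = 0.624). MMP8 and MMP17, high in both lines, stood at -0.16 ± 0.286 and -0.25 ± 0.486 and did not pass. SK-Mel 24 was in a medium with more serum than SK-Mel 28, and its melanocyte markers were lower; their part in the result was not tested.

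**Figure D5:**
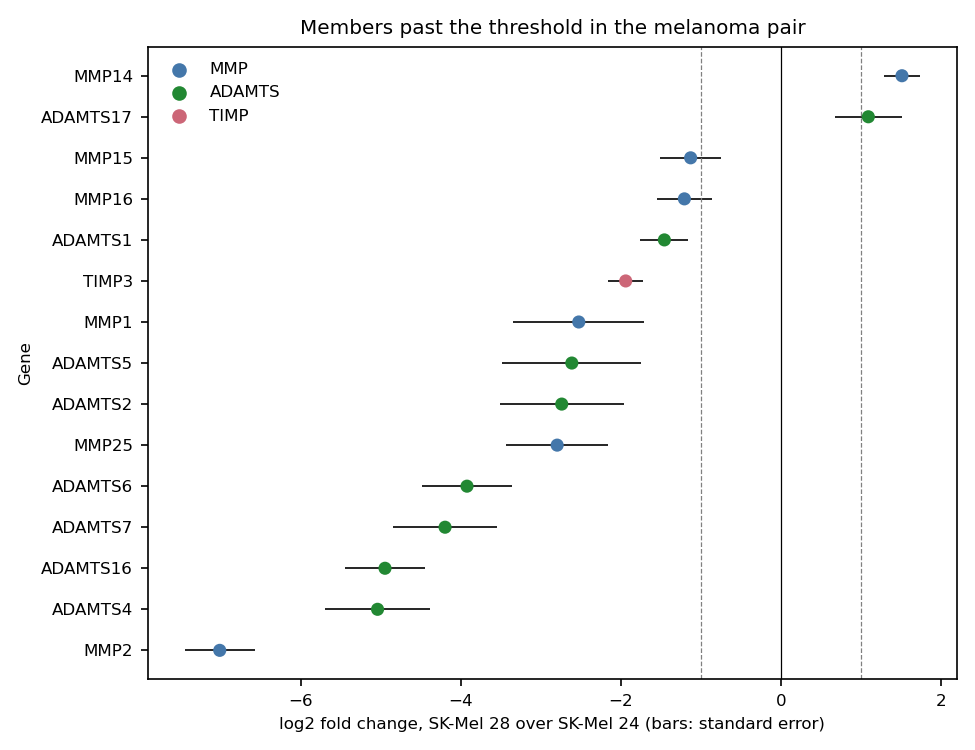
Log2 fold change of SK-Mel 28 over SK-Mel 24 with its standard error for 15 members past the threshold, with dashed lines at a log2 fold change of 1 in either direction. MMP7, MMP9, MMP11, MMP19, ADAMTS8, ADAMTS15 and ADAMTS20, with 0 to 3 counts in SK-Mel 28, are not drawn. MMP14 (1.51) and ADAMTS17 (1.09) lie to the higher side, and MMP2 (-7.01) is the farthest of those drawn to the lower side.

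BJ was compared with the mean of the other 8 lines, which asks how the one line that is not from a tumour differs in these genes. Members were mostly higher in BJ: 27 of 41 passed as higher (20.1% of all genes) and 4 as lower (13.1%). The median log2 fold change was 2.91 over the members and -0.05 over all genes. All 4 TIMP genes, 11 of 19 MMP genes and 12 of 18 ADAMTS genes were higher. This contrast averages over lines at or near 0, which stretches it: for 13 of the 27 some other line was at 0 counts. BJ was the highest line by fitted level for 12 of the 27 and at least 2-fold above the highest other line for 10, and 4 of the 27 were under 1 TPM in BJ. TIMP4 was among these 4, with 0.808, 0.396 and 0.166 TPM in BJ against a mean of 30.1 TPM in A549.

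The procollagen proteases were higher for 3 of 3, with ADAMTS2 at 10.30 ± 0.23 (log2, SE). MMP3 stood at 9.89 ± 0.377, ADAMTS1 at 8.69 ± 0.184, MMP1 at 7.58 ± 0.484, or 6.41 without BJ library 1, MMP19 at 6.56 ± 0.272 and MMP2 at 6.41 ± 0.193. The TIMPs were higher too, with TIMP3 at 4.07 ± 0.124, TIMP2 at 3.28 ± 0.138 and TIMP1 at 3.22 ± 0.192. TIMP4, under 1 TPM in BJ, stood at 2.41 ± 0.53, and MMP14 stood at 2.91 ± 0.135. All of these had adjusted p-values under 0.05 by edgeR. A549 was at 0 counts for MMP3, Caco2 for ADAMTS1, SK-Mel 28 for MMP19, and both Caco2 and SK-Mel 28 for TIMP4. The size of these folds and their SE thus rest partly on how counts of 0 are treated. The lower members were MMP15, which fell by 3.22 ± 0.389, ADAMTS16 by 3.36 ± 0.601 (by 4.10 without BJ library 1), ADAMTS17 by 4.19 ± 0.799 and ADAMTS9 by 2.23 ± 0.412. With coding transcripts alone ADAMTS17 and ADAMTS9 lost their calls, and ADAMTS17 also lost it without Caco2 library 1. MMP7, MMP9, MMP13 and ADAMTS20 were at 0 counts in BJ and give no usable fold. In BJ the fibroblast markers reached 1 TPM for 5 of 5 genes, and their part in the result was not tested.

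Over the 36 pairs of lines, the share of the 41 members past the same threshold ran from 39.0% between Caco2 and HepG2 (16 members; 46.2% of all genes) to 82.9% between BJ and U2-OS (34 members; 44.8% of all genes). In the latter pair 20 were higher in BJ and 14 in U2-OS. These mesenchymal lines each held 24 members at 1 TPM, but not the same 24 and mostly at different levels. MMP1, MMP11 and ADAMTS5 reached it in BJ and not in U2-OS, and MMP13, ADAMTS3 and ADAMTS16 in U2-OS and not in BJ.

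Summed over the family, MMP TPM was highest in BJ (1416 ± 308, SD, n = 3) and SK-Mel 24 (1209 ± 166), then SK-Mel 28 (739.6 ± 96.8). Sums were 372.5 TPM in U251, 357.8 in U2-OS, 325.3 in A549, 178.2 in RT4, 54.8 in Caco2 and 34.5 in HepG2. Without mitochondrial genes HepG2 stood at 74.1 ± 4.84 TPM (SD, n = 3), above Caco2 at 57.4 ± 17.3 TPM. TIMP sums exceeded MMP sums in the mean of every line. The ratio of TIMP to MMP TPM was 1.11 ± 0.0971 in U251, 1.23 ± 0.258 in RT4 and 1.62 ± 0.0923 in A549, and from 2.88 to 3.82 in HepG2, the melanoma lines, BJ and Caco2. U2-OS stood at 5.17 on average with libraries from 3.31 to 8.73, and at 3.39 without library 3. These are sums of RNA and carry no test.

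Genes that act with these families were read from lists chosen with results of these data known, and are given as counts. The shares of all genes to read them against are those given above: 20.1% higher and 13.1% lower in BJ, and 15.5% higher and 16.5% lower in SK-Mel 28. Of 20 activators and regulators, such as the plasminogen activation genes, 14 were higher in BJ than in the mean of the other lines and 1 lower, the proprotein convertase gene PCSK6 (-3.28 ± 0.323), with THBS2, a clearance partner of MMP2, highest at 7.80 ± 0.185. Between the melanoma lines 3 of the 20 were higher in SK-Mel 28 and 11 lower, with PCSK6 at 3.58 and THBS2 at -8.17 ± 0.431. BSG, a surface protein known to induce MMPs, had line means from 317 to 806 TPM. Its HepG2 libraries held 293.5, 1157 and 929.8 TPM, and U2-OS library 3 held 228.3 TPM. A2M, the plasma protease inhibitor, reached a mean of 1619 TPM in HepG2. These HepG2 values were not recomputed without mitochondrial genes, which take a large part of TPM there and so lower them.

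Of 15 matrix substrates 11 were higher in BJ and 2 lower, led by COL1A2 (13.14 ± 0.373, and 7215 TPM in BJ), and 7 were lower and 1 higher in SK-Mel 28 than in SK-Mel 24, with COL3A1 lowest at -5.73. The higher gene was NCAN, on 23 counts over the SK-Mel 28 libraries and 1 over those of SK-Mel 24. A list of 14 genes held AP-1 and ETS factors, which bind MMP promoters, and also RUNX2, which belongs to neither family. Of the 14, 1 was higher in SK-Mel 28 (ETV5, 1.15) and 5 lower, with JUN lowest at -2.67 ± 0.401 and RUNX2 at -2.17. FOSL1 stood at 393 TPM in SK-Mel 24, 103 in SK-Mel 28 and 196 in U251. In BJ 4 of the 14 were higher (20.1% of all genes), with ELK3 at 1.91, and 2 lower (13.1%), with ETV4 at -3.41.

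The membrane ADAMs and the ADAMTS-like proteins are relatives of these proteases. Of 11 membrane ADAMs 4 were higher in BJ (20.1% of all genes) and 2 lower (13.1%), with ADAM33 at 10.12 ± 0.283 and ADAM22 at -3.93 ± 0.325, and their median of -0.11 was near that of all genes. Between the melanoma lines 5 were lower in SK-Mel 28, with ADAM12 at -3.82 ± 0.332, and ADAM23 was higher at 2.78 ± 0.27. Of 7 ADAMTS-like genes, which lack the protease domain, 4 were higher in BJ and 1 lower, and ADAMTSL1 was 5.29 higher in BJ and stood at -5.40 in SK-Mel 28 against SK-Mel 24.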

How the data were processed

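Poly-A RNA of 27 libraries from 9 human cell lines was sequenced. The authors deposited 1 table per library with estimated counts and TPM for 176241 transcripts, per the file headers. Per the submitters' processing notes they used CASAVA 1.8 and kallisto 0.43.1 with build GRCh38. The sources used here do not give the strand and bias settings or the release behind the index, so values of genes that overlap on opposite strands are uncertain. Transcripts were matched to GENCODE release 29 by identifier (159887 matched, and 9.28% did not and were left out), and TPM and estimated counts were summed to 34584 genes with pandas 2.3.3.

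The gene sums were rounded to whole numbers and fitted in edgeR 4.0.16 (R 4.3.3) by the quasi-likelihood test with robust dispersions, TMM factors, its default filter on low counts and 1 coefficient per line, over all 27 libraries. P-values were adjusted by Benjamini-Hochberg over the 17220 genes tested. A difference was called at an adjusted p under 0.05 and a log2 fold change of at least 1. An SE beside a log2 fold change is its absolute value divided by the square root of the F statistic of its test. It is an approximation, and less sure where a line is at 0 counts. Enrichment in 1 line asked for 8 one-sided tests, with the largest p adjusted, and a margin of 4-fold. The biological coefficient of variation was 24.2%. On simulated counts for SK-Mel 28 against SK-Mel 24 over 17253 genes, 98 of 100 genes changed 4-fold and 72 of 100 changed 2.5-fold were recovered, with 2 unchanged genes called. The simulation gave every gene the same spread and held no outlier library. Only genes at 1 CPM or more in SK-Mel 24 were changed, so recovery of lower members was not measured. Alternatives covered DESeq2 1.42.0, other filters, factors and gene sets, coding transcripts only, a replicate block and leaving out each library.

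A member is described with every library where its mean reached 20 TPM in some line, or where it was enriched at 5 TPM or more, and members from 1 TPM by their range. The members were taken by symbol alone, with no use of their levels. The choice of these families and of the lists of related genes was made with earlier results of these data known. Libraries 1 to 3 are numbered in the order of deposit. The series design calls them biological replicates, but nothing says how the cultures were separated, so p-values measure the spread between libraries. Libraries of a line differed by more than sampling noise. Promoter windows came from RefSeq. ADAMTS1, ADAMTS4, ADAMTS5, ADAMTS8, ADAMTS9, ADAMTS15, ADAMTS16, MMP1, MMP2, MMP3, MMP9, MMP12, MMP13, MMP16, MMP17, MMP19, MMP25, MMP28 and TIMP2 had none in the table used.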

Additional observations from a re-analysis of the deposited data

How the results depend on the processing

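Of 66 member calls, 47 were kept under every alternative in which the member was tested, 19 were lost under at least 1, and 0 changed direction. A member that an alternative left untested was not counted as lost. The 13 enriched members became 8 with a replicate block and 7 with an 8-fold margin, and 11 to 14 when each library was left out. Members higher in SK-Mel 28 (2) became 1 with the block, 1 with coding transcripts and 1 in a test against 2-fold itself, and 1 to 2 when each library was left out; those lower (20) ran from 17 to 21 there and became 15 in the test against 2-fold itself, without ADAMTS1, ADAMTS5, MMP1, MMP15 and MMP16. Members lower in BJ (4) became 2 with coding transcripts and 8 by DESeq2, and 3 to 4 when each library was left out. Members higher in BJ (27) ran from 27 to 28 when each library was left out. They became 24 with a filter of 1 CPM in 3 libraries and 25 in the test against 2-fold itself. With coding transcripts, or without HepG2, they became 26. Of the 27, 10 were at least 2-fold above the highest other line. The 41 members that differed among lines ran from 41 to 42 when each library was left out. They became 35 with the filter of 1 CPM in 3 libraries, 40 with coding transcripts and 43 with no filter. The 36 at 1 TPM ran from 35 to 36 when each library was left out, and 28 reached 5 TPM. In HepG2, 5 members at 1 TPM became 9 without mitochondrial genes and 11 at 1 CPM. The cause of these changes was not tested. The replicate block used the number after P in the titles, whose meaning is not given. Over 38 pairs of libraries with the same number from different lines, the mean correlation of deviations was 0.012 (from -0.195 to 0.311). Over 286 pairs with other numbers it was -0.00143 (from -0.408 to 0.488). What the number stands for was not tested. With 3 libraries per line, members under 1 TPM rest on few counts.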
